A study of Hordeum vulgare with 12 samples.

Results

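Barley-discovered miRNA families are the mature miRNA sequences that carry a barley name (prefix hvu-) and belong to families miR5048 to miR5053 or miR6176 to miR6214. They were taken from the deposited lists of plant miRNA sequences by those names and family numbers, with no threshold on counts. This choice was made with earlier results of these data known. The rule found 50 of 3258 listed sequences, in 45 families. Families miR5048 to miR5053 gave 11 sequences and families miR6176 to miR6214 gave 39. Of the 50, 45 (90%) had at least 1 count over the 12 libraries, against 697 of all 3258 listed sequences (21.39%). All 16 other listed sequences with a barley name were also counted.

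The libraries came from barley (Hordeum vulgare) of the spring cultivar Golden Promise, and the question was how small RNA levels differ between plants given ordinary and excess ammonium nitrate. Control shoot and control root came from plants in perlite with a medium holding 28 mM NH4NO3. Nitrogen-excess shoot and nitrogen-excess root came from plants given the same medium at 280 mM NH4NO3. Both media held 8 μM CuSO4, both sets of plants were 2 weeks old and shared their pots in pairs, and each of the 4 groups had 3 libraries described as biological replicates. The labels do not say whether shoot and root libraries of equal number stem from the same plants.

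Plant miRNAs are cut from hairpin transcripts by a DICER-LIKE enzyme and loaded into an ARGONAUTE protein, which they guide to matching messenger RNAs. In Arabidopsis the first base of a small RNA influences which ARGONAUTE it enters, and several plant miRNAs that are longer by a base than the common length and begin with uracil can start the production of phased secondary siRNAs from their targets. The families described here were named from small RNA sequencing of barley rather than from widely conserved plant families, so fewer of them have an established target or role, and none is assigned a function here.

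The mature sequences that carry the results are shown 5′ to 3′ with T for U, as in the deposited tables, and with the seed (bases 2 to 8) in capitals. The first pair is hvu-miR5048, a single listed sequence with the names hvu-miR5048a and hvu-miR5048b, beside the wheat-named sequence of the same family. They share 20 bases, and the wheat-named one starts at base 3 of the barley one.
hvu-miR5048a/b: tATTTGCAggttttaggtctaa
tae-miR5048-5p: tTTGCAGGttttaggtctaagt

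The next set holds the other abundant members and the pair hvu-miR5049e and hvu-miR5049b, which share a run of 18 bases shifted by 1 position.
hvu-miR5051: tTTGGCACcttgaaactggga
hvu-miR5049e: aATTATTTaggtacagaggga
hvu-miR5049b: aGTATTTAggtacagagggag

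The 3 sequences with higher levels in shoot over the 10 libraries used below follow.
hvu-miR5049a: tCCTAAATacttgttgttggg
hvu-miR5052: aCCGGCTGgacggtaggcata
hvu-miR6201: tGACCCTGaggcactcataccg

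The last set holds the 8 sequences with higher levels in root over those 10 libraries.
hvu-miR6181: tGCTCTTCatggactgcggcgcc
hvu-miR6198: gCTCTGTCttggatggtcattc
hvu-miR6187: tGAACAGGttcggcgacctca
hvu-miR6177: tACCATGGacagaaggcactta
hvu-miR6179: aACCAGTCgaggccagggggtt
hvu-miR6214: cGACGACGacgagcacgaca
hvu-miR6210: aCTCCTTGgttatcaacttcga
hvu-miR6186: cGAGGAAGgcgctgagagaga

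No 2 of the 50 sequences had the same seed. Unlike seeds do not exclude shifted variants, as hvu-miR5049e and hvu-miR5049b show. That pair was the only one among the 50 to share a run of 12 bases or more. Of the 50 sequences, 21 were 21 nt long (42%), 16 were 22 nt (32%), 7 were 20 nt and 6 were 23 nt. Among the 3208 other listed sequences 56.0% were 21 nt and 16.3% were 22 nt. The first base was T in 21 members (42%) and A in 15 (30%), against 45.5% and 23.7% of the other listed sequences. Within miR5049 the 6 members fell into unlike sequences. The run ATTTAGG, chosen after the sequences were seen and searched with its reverse complement CCTAAAT, was present in hvu-miR5049e, hvu-miR5049b and hvu-miR5049d as written. It was present in hvu-miR5049a and hvu-miR6197 as the reverse complement. In all, 5 of 50 members (10%) held it in either direction, against 11 of all 3258 listed sequences (0.338%). hvu-miR5049f instead shared 17 bases with tae-miR5049-3p, and hvu-miR5050 shared 13 bases with tae-miR5050 only on opposite strands.

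Totals over all listed sequences ranged from 245176 counts in nitrogen-excess shoot 3 to 2246495 in nitrogen-excess shoot 1. The libraries labelled nitrogen-excess shoot 3 and control root 3 did not resemble the other libraries of their tissues. On a scale where 0 is the mean shoot profile and 1 the mean root profile of the other libraries, over 147 sequences with no member among them, 5 shoot libraries ranged from -0.33 to 0.17 and 5 root libraries from 0.79 to 1.39. The exceptions were the library labelled nitrogen-excess shoot 3, at 0.98, and that labelled control root 3, at -0.27. The summed entries miR6300 and miR8175, which match stretches of aspartate tRNA, took 1855 to 7063 CPM of the listed total (counts scaled to equal library totals) in the other 5 shoot libraries and 28367 to 183238 in the other 5 root libraries. They took 27201 in the library labelled nitrogen-excess shoot 3 and 3359 in the library labelled control root 3. Labels were kept as given, and results resting on these libraries are given with and without them. Nitrogen-excess root 3 is the 1 library whose name has the third of 3 prefixes, and 450 other listed sequences were detected in it, against 195 to 300 in the other 11.

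Member counts were concentrated in a few sequences. hvu-miR5048a/b held 87.3% of all member counts, and with hvu-miR5051 the share was 96.6%. Of the 45 counted members, the 5 most counted (hvu-miR5048a/b, hvu-miR5051, hvu-miR6201, hvu-miR5049a and hvu-miR5049e) had totals from 1494 to 364110, 19 others had at least 50, 15 had 10 to 49 and 6 had 1 to 9. The numbers of members with a count were 18 to 26 in the other 5 shoot libraries and 20 to 40 in the other 5 root libraries. They were 23 in the library labelled nitrogen-excess shoot 3 and 24 in the library labelled control root 3. The uncounted members were hvu-miR6176, hvu-miR6182, hvu-miR6202, hvu-miR6206 and hvu-miR6212.

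**Figure D1:**
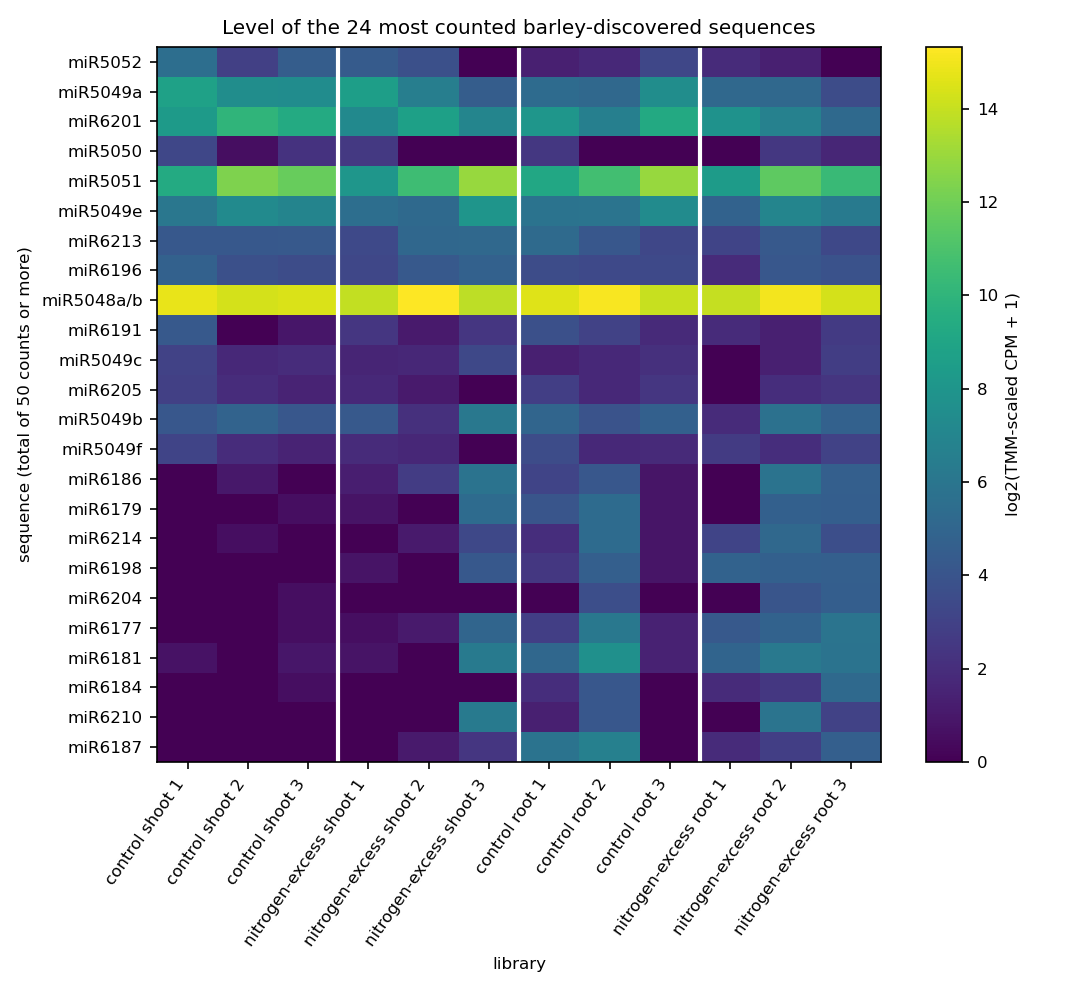
Each row is 1 of the 24 members with a total of 50 counts or more, each column is 1 of the 12 libraries, and colour gives log2(TMM-scaled CPM + 1). hvu-miR5048a/b is bright in every column, and the sequences in the lower rows are dark in 5 shoot libraries and in the library labelled control root 3.

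hvu-miR5048a/b was abundant in both tissues and under both conditions. It had 43924, 42307 and 48180 counts in control shoot, against 62264, 36032 and 3216 in nitrogen-excess shoot. It had 15531, 15582 and 19462 in control root, against 6073, 22304 and 49235 in nitrogen-excess root. It ranked between 4 and 7 among all listed sequences in each library and took from 0.951% to 4.62% of a library's listed counts. After TMM scaling, which adjusts library size for a few dominating sequences, its level was 23927 ± 4260 CPM (counts scaled to a common library size; SD, n = 3) in control shoot and 23434 ± 15137 in nitrogen-excess shoot. It was 25836 ± 10126 in control root and 23695 ± 9399 in nitrogen-excess root. The 4 group means lay well within the spread of the libraries. Over 12 libraries the log2 fold change of root over shoot was 0.06 ± 0.45 (SE; adjusted p = 0.967, edgeR quasi-likelihood). With library totals in place of TMM it turned to -0.77, where the median of all tested sequences was -0.48.

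The shifted wheat-named sequence tae-miR5048-5p was counted 5898 times. Its share of the counts of both miR5048 sequences was 1.59% over all libraries (95% Wilson interval 1.55% to 1.64%, counting error only). By library it was 2.80%, 0.683% and 0.738% in control shoot, against 2.69%, 0.997% and 1.05% in nitrogen-excess shoot. In root it was 2.71%, 1.25% and 1.02% under control and 2.24%, 1.00% and 1.34% under nitrogen excess. The 4 replicate 1 libraries, whose names share the first of 3 prefixes, were all above the other 8, whatever their tissue or condition.

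**Figure D2:**
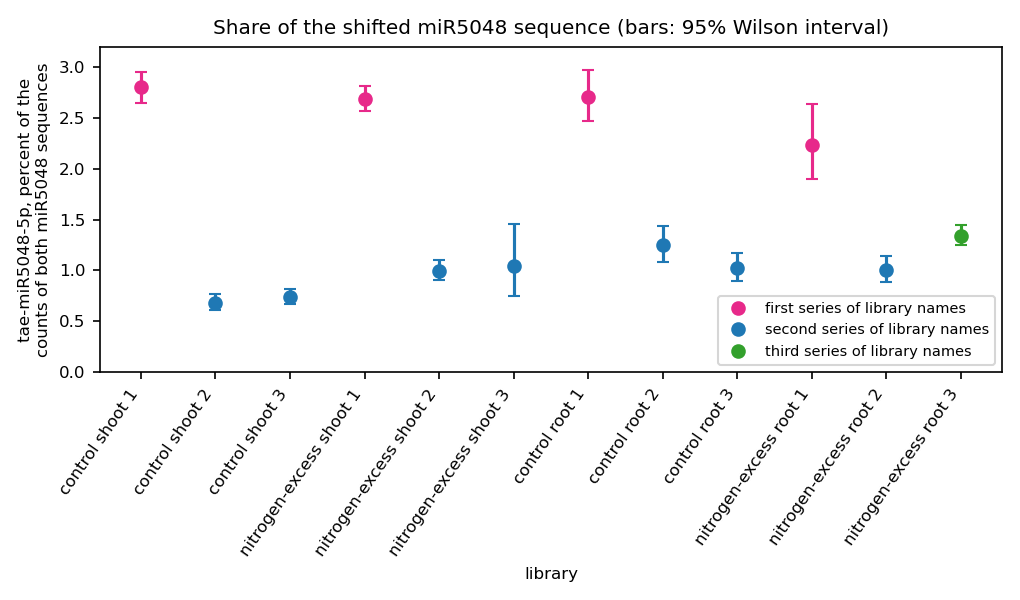
Points give the counts of tae-miR5048-5p as a percent of the counts of both miR5048 sequences in each of 12 libraries, with 95% Wilson intervals, coloured by the prefix of the library name. The 4 libraries of the first prefix lie between 2.24% and 2.80%, and the other 8 between 0.683% and 1.34%.

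hvu-miR5051 was the second most counted member and varied strongly within every group. It had 991, 10582 and 7423 counts in control shoot, against 1097, 1329 and 1778 in nitrogen-excess shoot. It had 377, 684 and 9224 in control root, against 125, 1904 and 3185 in nitrogen-excess root. Scaled to CPM, the 4 replicate 1 libraries were at 648, 269, 584 and 334 in that order of groups, and each of the other 8 was at 1334 or more. As shares of the listed counts the 2 sets overlapped, at 0.0231% to 0.0760% and 0.0595% to 1.41%. The level was highest in the library labelled control root 3 at 7924 CPM and in the library labelled nitrogen-excess shoot 3 at 7829 CPM. Its rank among listed sequences ran from 11 to 47.

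Between tissues, edgeR without a replicate block called no member that passed the filter when all 12 libraries were used with their labels, at an adjusted p below 0.05 over all sequences tested. In control plants 0 of 144 sequences were called (0%), 0 of the 9 members tested among them, while 18 sequences had an unadjusted p below 0.05 and DESeq2 called 16 (11.1%; 10.4% higher in root), 0 of them members. In nitrogen-excess plants 0 of 149 were called (0%), 0 of 14 members among them, while 16 had an unadjusted p below 0.05 and DESeq2 called 1 (0.671%), 0 of them members. With both conditions in 1 model, a comparison added after the data were seen, 1 of 177 sequences was called (0.565%) and 0 of 18 members. The lowest adjusted p of a member was 0.0628, for hvu-miR6187 at a log2 fold change of 6.24 ± 1.59 (edgeR). DESeq2 called 40 of the 177 (22.6%), 30 higher in root (16.9%) and 10 lower (5.65%). Among them were 4 members higher in root, hvu-miR6181, hvu-miR6187, hvu-miR6198 and hvu-miR6214, and 2 lower, hvu-miR5049a and hvu-miR5052, while DESeq2 gave no p for hvu-miR6177. With no filter edgeR called 45 of 697 (6.46%), 42 higher (6.03%) and 3 lower (0.43%), of which 13 and 2 were members. In nitrogen-excess plants, samples of the same number deviated together, and with the replicate number as a block edgeR called 18 of 149 (12.1%), of which 3 were members. Their log2 fold changes were, for hvu-miR6181, 3.70 (adjusted p = 0.0152), for hvu-miR6177, 3.40 (adjusted p = 0.0228) and for hvu-miR6198, 3.75 (adjusted p = 0.0282), all higher in root.

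Without the 2 libraries that stood apart, edgeR called 11 members between root and shoot. Those 2 were omitted for where they lay between the mean shoot and root profiles, the contrast tested here. More calls were thus likely in advance, and they are not independent support for a tissue difference. Over the remaining 10 libraries 62 of 183 sequences were called (33.9%), 42 higher in root (23%) and 20 lower (10.9%). Of the 21 members tested, 8 were higher in root, 3 were higher in shoot and 10 were not called. With nitrogen-excess root 3 left out as well, a choice made after seeing the data, 51 of 173 were called (29.5%), 39 higher (22.5%) and 12 lower (6.94%). Of 16 members then tested, 6 were higher in root and 2, hvu-miR5049a and hvu-miR5052, were higher in shoot. hvu-miR6201 was then not called, at -1.40 ± 0.61 (adjusted p = 0.102, edgeR), and hvu-miR6186 and hvu-miR6210 did not pass the filter. Of the other 29 members, 24 were counted but did not pass the filter on low counts and 5 had no count. A member nearly absent from shoot can pass that filter only through its root counts, so these counts of members are a description and not support for a difference of the whole set. The tRNA fragment level moved with the tissues and with the 2 omitted libraries as given above, and its part in these differences was not tested. In such bulk tissue, fewer cells of a type and less RNA per cell cannot be told apart. The median GC content was 59.5% for the 8 root-high members, 59.1% for the 3 shoot-high members and 43.2% for the 10 not called.

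**Figure D3:**
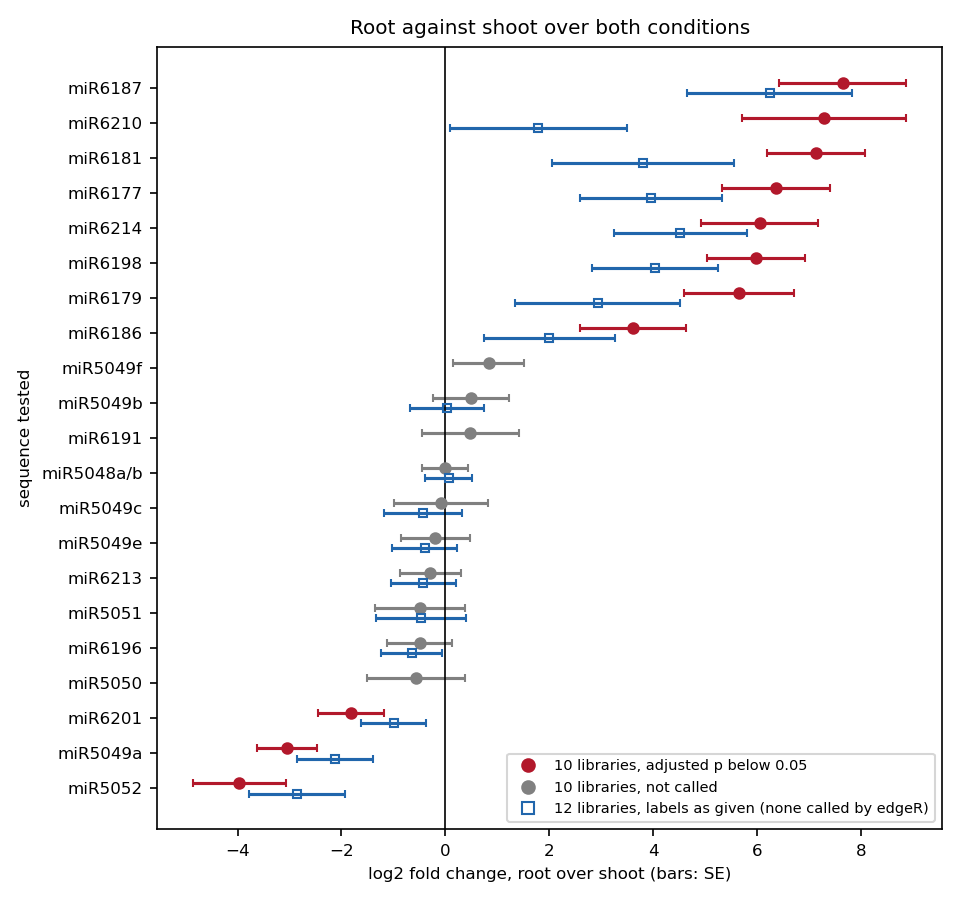
Points give the log2 fold change of root over shoot with its SE for the 21 members tested over 10 libraries (circles, red where the adjusted p was below 0.05) and for the 18 tested over all 12 (open squares). The 8 sequences highest in root and the 3 highest in shoot move towards 0 when the 2 libraries are included.

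hvu-miR6181 was the most counted of the root-high members. It had 1, 0 and 2 counts in control shoot, against 3, 0 and 18 in nitrogen-excess shoot. It had 22, 89 and 2 in control root, against 11, 47 and 134 in nitrogen-excess root. The high shoot value and the low root value were those of the libraries labelled nitrogen-excess shoot 3 and control root 3, and the other root and shoot libraries did not overlap after scaling. Its log2 fold change was 3.81 ± 1.75 over 12 libraries (adjusted p = 0.180, edgeR) and 7.14 ± 0.94 over 10 (adjusted p = 5.67e-05, edgeR). The summed counts were 303 in the 5 root libraries and 6 in the 5 shoot libraries, a ratio of 120 after scaling (95% counting interval 54.7 to 331). That interval, like those of summed counts below, leaves out the spread between libraries.

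hvu-miR6187 and hvu-miR6177 had the same layout. hvu-miR6187 had 0, 0 and 0 counts in control shoot, 0, 1 and 1 in nitrogen-excess shoot, 36, 42 and 0 in control root, against 1, 4 and 58 in nitrogen-excess root. hvu-miR6177 had 0, 0 and 1, then 2, 1 and 7, then 4, 29 and 2, then 7, 18 and 137 in the same order of groups. Over 10 libraries both were detected in all 5 root libraries, and each scaled root level lay above each shoot level. For hvu-miR6187 the closest libraries, nitrogen-excess root 1 and nitrogen-excess shoot 2, held 1 count each. Their log2 fold changes were 7.65 ± 1.22 (adjusted p = 0.000226, edgeR) and 6.37 ± 1.04 (adjusted p = 0.000233, edgeR). Over 12 libraries hvu-miR6177 was at 3.95 ± 1.37 (adjusted p = 0.108, edgeR). After scaling, the ratio of summed counts was 336 for hvu-miR6187 with a counting interval of 59.4 to 13381, since shoot held a single count. It was 116 for hvu-miR6177 with a counting interval of 44.7 to 431.

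hvu-miR6198 had 0, 0 and 0 counts in control shoot, 3, 0 and 4 in nitrogen-excess shoot, 3, 10 and 1 in control root, against 10, 16 and 58 in nitrogen-excess root. hvu-miR6214 had 0, 1 and 0, then 0, 1 and 2, then 2, 17 and 1, then 3, 23 and 28 in the same order. After scaling, both had every one of 5 root libraries above every one of 5 shoot libraries, though by few counts. For hvu-miR6214 the closest were control root 1 at 3.10 CPM (2 counts) and nitrogen-excess shoot 2 at 1.14 CPM (1 count). As shares of library totals these 2 libraries overlapped. For hvu-miR6198 the closest, control root 1 and nitrogen-excess shoot 1, held 3 counts each. Their log2 fold changes over 10 libraries were 5.98 ± 0.95 (adjusted p = 0.000221, edgeR) and 6.05 ± 1.13 (adjusted p = 0.00062, edgeR). Over 12 libraries they were 4.03 ± 1.22 (adjusted p = 0.0924, edgeR) and 4.52 ± 1.28 (adjusted p = 0.0886, edgeR), neither called.

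The remaining root-high members were absent from at least 1 root library. hvu-miR6179 had 0, 0 and 1 counts in control shoot, 3, 0 and 9 in nitrogen-excess shoot, 10, 17 and 1 in control root, against 0, 16 and 55 in nitrogen-excess root. hvu-miR6186 had 0, 2 and 0, then 6, 5 and 13, then 5, 7 and 1, then 0, 37 and 56. hvu-miR6210 had 0, 0 and 0, then 0, 0 and 17, then 1, 7 and 0, then 0, 38 and 17. For all 3 the empty library was nitrogen-excess root 1, so the tissues overlapped even over 10 libraries. Over 10 libraries the log2 fold changes were 5.66 ± 1.06 for hvu-miR6179 (adjusted p = 0.00062, edgeR) and 3.61 ± 1.03 for hvu-miR6186 (adjusted p = 0.0121, edgeR). Over 12 libraries they were 2.93 ± 1.59 (adjusted p = 0.257, edgeR) and 2.00 ± 1.25 (adjusted p = 0.330, edgeR), and neither was called. hvu-miR6210 was at 0 in those 5 shoot libraries and at least 50.1-fold higher in root, taking 3 counts over the 5 shoot libraries as the floor (adjusted p = 0.0038, edgeR). The omitted library labelled nitrogen-excess shoot 3 held its highest level of all 12, at 74.9 CPM, and with all 12 the log2 fold change was 1.79 ± 1.70 (adjusted p = 0.539, edgeR).

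**Figure D4:**
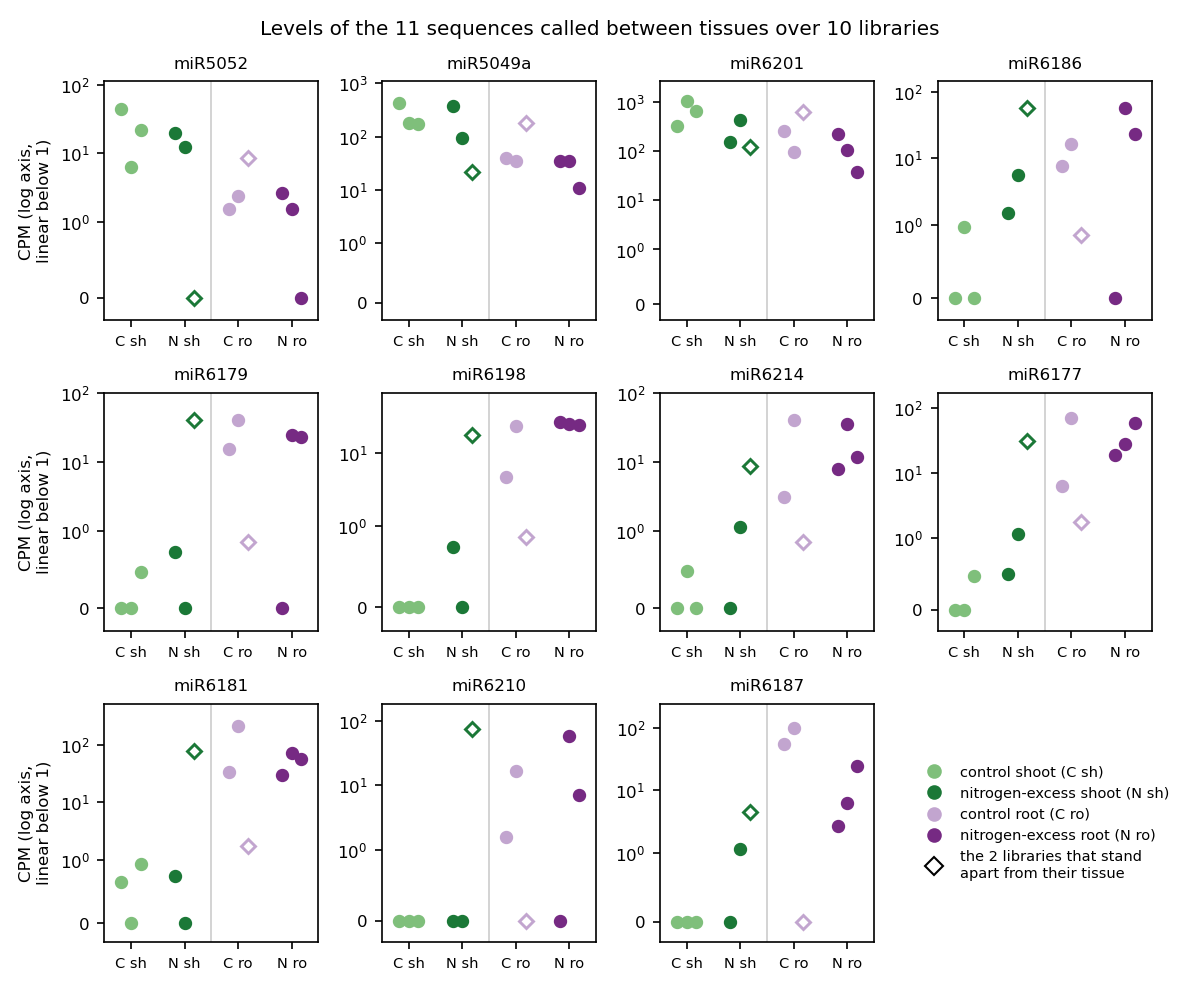
Each panel shows 1 of the 11 members called between tissues over 10 libraries, with the TMM-scaled CPM of each of 12 libraries on a log axis that is linear below 1. Open diamonds mark the libraries labelled nitrogen-excess shoot 3 and control root 3, which for hvu-miR6181 sit at or near the level of the other tissue.

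Of the shoot-high members, hvu-miR6201 and hvu-miR5049a had the most counts. hvu-miR5049a had 665, 376 and 371 counts in control shoot, against 1573, 82 and 5 in nitrogen-excess shoot. It had 26, 15 and 209 in control root, against 13, 23 and 26 in nitrogen-excess root. Without the 2 libraries that stood apart, each shoot level was above each root level. Its log2 fold change of root over shoot was -2.13 ± 0.73 over 12 libraries (adjusted p = 0.108, edgeR) and -3.06 ± 0.58 over 10 (adjusted p = 0.000669, edgeR), and its summed level was 12.5 times higher in shoot.

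hvu-miR5052 had 69, 13 and 48 counts in control shoot, against 81, 11 and 0 in nitrogen-excess shoot. It had 1, 1 and 10 in control root, against 1, 1 and 0 in nitrogen-excess root. The 5 shoot libraries lay above the 5 root libraries, which held 4 counts in all, and the log2 fold change over 10 libraries was -3.96 ± 0.89 (adjusted p = 0.00272, edgeR). Over 12 libraries it was -2.86 ± 0.92 (adjusted p = 0.0924, edgeR). hvu-miR6201, the 1 member that also carries names from other species, had 502, 2165 and 1410 counts in control shoot, 637, 374 and 28 in nitrogen-excess shoot, 167, 41 and 745 in control root, against 83, 69 and 89 in nitrogen-excess root. Its tissues overlapped, and the log2 fold change over 10 libraries was -1.81 ± 0.64 (adjusted p = 0.0391, edgeR). Over 12 libraries it was -0.997 ± 0.619 and not called (adjusted p = 0.329, edgeR).

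The members not called over 10 libraries had log2 fold changes from -0.56 to 0.83. They were hvu-miR5048a/b, hvu-miR5051, hvu-miR5050, hvu-miR5049b, hvu-miR5049c, hvu-miR5049e, hvu-miR5049f, hvu-miR6191, hvu-miR6196 and hvu-miR6213. hvu-miR5049e had 102, 329 and 259 counts in control shoot, 184, 33 and 57 in nitrogen-excess shoot, 36, 25 and 194 in control root, against 10, 82 and 183 in nitrogen-excess root, for a log2 fold change of -0.19 ± 0.67. hvu-miR5049b, with which it shares 18 bases, had 26, 59 and 36, then 76, 3 and 16, then 20, 6 and 29, then 1, 33 and 63, for 0.49 ± 0.73. Neither followed hvu-miR5049a in being called between tissues, though the difference between these sequences was not itself tested. hvu-miR6213 had 27, 37 and 39, then 39, 30 and 8, then 25, 7 and 10, then 3, 12 and 21 counts, and hvu-miR6196 had 40, 25 and 23, then 35, 16 and 6, then 7, 4 and 11, then 1, 11 and 32. Both had counts in all 12 libraries at similar scaled levels in the tissues.

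The thinly counted members of the 24 were uneven between libraries. hvu-miR6191 had 28, 0 and 2 counts in control shoot, 18, 1 and 1 in nitrogen-excess shoot, 8, 3 and 3 in control root, against 1, 1 and 12 in nitrogen-excess root. In the same order hvu-miR5050 had 13, 1 and 8, then 20, 0 and 0, then 3, 0 and 0, then 0, 3 and 5. hvu-miR5049f had 12, 6 and 4, then 11, 2 and 0, then 7, 1 and 3, then 2, 2 and 17. In each of these, some libraries of a group were at or near 0 while another held most of its counts. hvu-miR5049c had 11, 5 and 6, then 8, 2 and 2, then 1, 1 and 4, then 0, 1 and 14. hvu-miR6205 had 10, 6 and 4, then 10, 1 and 0, then 4, 1 and 5, then 0, 2 and 10, and it did not pass the filter over 10 libraries.

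Another 2 members, hvu-miR6184 and hvu-miR6204, were almost empty in shoot but had most of their counts in nitrogen-excess root 3, the library alone in its name prefix, and were not tested over 10 libraries. hvu-miR6184 had 0, 0 and 1 counts in control shoot, 0, 0 and 0 in nitrogen-excess shoot, 2, 7 and 0 in control root, against 1, 3 and 89 in nitrogen-excess root. hvu-miR6204 had 0, 0 and 1, then 0, 0 and 0, then 0, 5 and 0, then 0, 10 and 54. After scaling, their ratios of summed root to shoot counts were 243 (counting interval 42.7 to 9705) and 165 (counting interval 28.6 to 6595).

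Summed over the 5 root and 5 shoot libraries, 34 of the 45 counted members (75.6%) had the higher scaled level in root and 11 (24.4%) in shoot, against 470 (67.4%) and 219 (31.4%) of all 697 counted sequences. By family number, 29 of 34 members of families miR6176 to miR6214 (85.3%) and 5 of 11 of families miR5048 to miR5053 (45.5%) were on the root side. These sides rest on TMM scaling, which set the summed depth at 4482559 counts for root and 10694859 for shoot. The 5 members of families miR5048 to miR5053 on the root side had root to shoot ratios of only 1.11 to 1.98, with fewer raw counts in root than in shoot. In families miR6176 to miR6214 the same held for hvu-miR6191, hvu-miR6205, hvu-miR6180 and hvu-miR6200, at ratios of 1.22, 1.31, 1.13 and 1.005. The side of all these members thus depends on the scaling, and the shares by library totals were not computed. Members with every root library above every shoot library were 6 of the 24 with 50 counts or more (25%), where the same held for 35 of all 193 such sequences (18.1%). The reverse held for 2 of the 24 (8.33%) and 11 of the 193 (5.7%). Differences between these shares were not tested.

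The 21 members with fewer than 50 counts were mostly seen in root. hvu-miR6178 had 39 counts in all, hvu-miR6195 38, hvu-miR6190 and hvu-miR6203 33 each, and hvu-miR6180, hvu-miR6183, hvu-miR6200 and hvu-miR6209 28 each. hvu-miR6197 had 20, hvu-miR6194 16, hvu-miR6185 15, hvu-miR6207 13, hvu-miR6199 and hvu-miR5053 12 each, and hvu-miR6211 10. hvu-miR6208 had 9, hvu-miR6188 7, hvu-miR5049d 6, hvu-miR6192 and hvu-miR6193 3 each and hvu-miR6189 1. Of these 21, 18 (85.7%) had the higher summed level in root, against 70.2% of all sequences with 1 to 49 counts. hvu-miR6203 went the other way, with 28 counts in the 5 shoot libraries and 2 in the 5 root libraries. For some, nitrogen-excess root 3 held most root counts, with 28 of 32 for hvu-miR6190, 15 of 16 for hvu-miR6194 and 19 of 28 for hvu-miR6209. For hvu-miR6178 it held 11 of 37. hvu-miR6180, hvu-miR6200 and hvu-miR5049d had ratios of only 1.13, 1.005 and 1.19, so their side depends on the scaling.

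Within each condition members were also called between tissues once the library that stood apart was omitted. These calls have the same limit, since the omission was made on the contrast tested. In control plants without control root 3, 40 of 153 sequences were called (26.1%), among them hvu-miR6181 at a log2 fold change of 7.55 (adjusted p = 0.00842, edgeR) and hvu-miR6187 at 9.62 (adjusted p = 0.00794, edgeR), both higher in root. hvu-miR5049a was lower in root at -2.89 (adjusted p = 0.0261, edgeR). In nitrogen-excess plants without nitrogen-excess shoot 3, 28 of 170 were called (16.5%), among them hvu-miR6181, hvu-miR6177, hvu-miR6198, hvu-miR6210 and hvu-miR6214 higher in root and hvu-miR5049a lower, at -3.26 (adjusted p = 0.0441, edgeR). hvu-miR6181 and hvu-miR5049a were thus called in both conditions. Of the 14 members tested in that comparison with all 6 libraries, hvu-miR6198 was the 1 whose groups did not overlap. It was higher in root, as were 7.38% of the sequences tested with groups apart, and 12.1% were apart in either direction. In control plants the groups of 0 of the 9 members tested were apart, against 6.94% of the sequences tested. Members that did not pass the filter are outside both counts, and some of them were apart at few counts. In control plants hvu-miR6181 was at 1.72 CPM or more in root and 0.932 or less in shoot. In nitrogen-excess plants hvu-miR6184 was at 2.67 CPM or more in root and 0 in shoot.

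Between nitrogen excess and control, edgeR called no member that passed the filter in either tissue. In shoot 0 of 148 sequences were called (0%), with 15 at an unadjusted p below 0.05, and DESeq2 called 8 (5.41%). None of the 9 members tested reached an unadjusted p of 0.05 in edgeR, and DESeq2 called 0 of them. In root 0 of 146 sequences were called (0%), with 1 at an unadjusted p below 0.05, and DESeq2 called 0; the 14 members tested had 0 at that level. The median log2 fold change was -0.23 for the members and -0.07 for all sequences in shoot, and -0.20 and -0.27 in root.

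**Figure D5:**
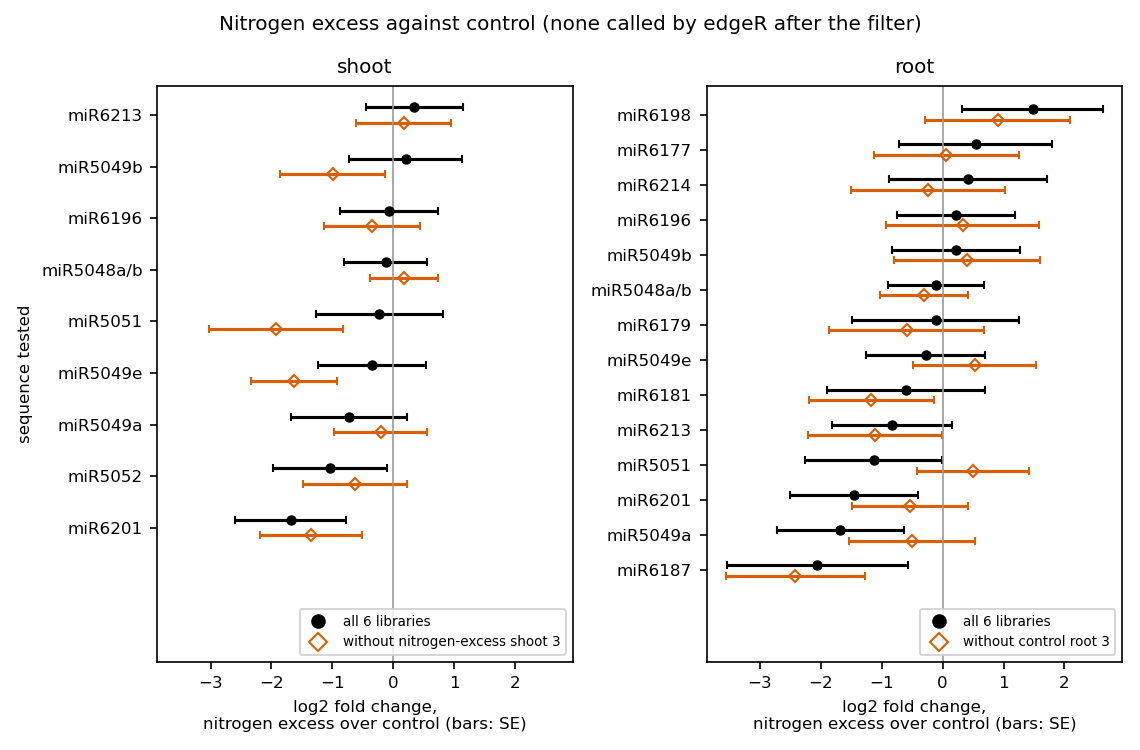
Points give the log2 fold change of nitrogen excess over control with its SE, in shoot (9 members) and root (14 members), with all 6 libraries (filled) and without the library that stood apart (open). edgeR called no member in either panel under either set of libraries.

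Among the 9 members that passed the edgeR filter in shoot with all 6 libraries, hvu-miR6201 had the largest log2 fold change in size. Its level was 680 ± 363 CPM (SD, n = 3) under control and 235 ± 165 under nitrogen excess. Its counts were given above, and the scaled groups overlapped. The log2 fold change was -1.68 ± 0.91 (adjusted p = 0.443, edgeR) and -1.35 ± 0.84 without nitrogen-excess shoot 3 (adjusted p = 0.743, edgeR). In root its level was 332 ± 279 CPM under control and 122 ± 93.1 under nitrogen excess, at -1.46 ± 1.05 (adjusted p = 0.955, edgeR), and -0.53 without control root 3.

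hvu-miR5051 and hvu-miR5049e depended on the library that stood apart. On the log2 fold change scale, hvu-miR5051 in shoot was at -0.23 ± 1.04 with all libraries and at -1.93 ± 1.10 without nitrogen-excess shoot 3 (adjusted p = 0.743, edgeR). hvu-miR5049e was at -0.35 ± 0.89 and at -1.63 ± 0.71 without that library (unadjusted p = 0.0474, adjusted p = 0.555, edgeR). In root hvu-miR5051 was at -1.13 ± 1.12 with all libraries and turned to 0.50 ± 0.92 without control root 3. With a term for the first prefix of the library names against the later ones, hvu-miR5051 was at -0.53 ± 0.81 in shoot and -1.04 ± 0.96 in root. hvu-miR5048a/b was near 0 with all libraries, at -0.13 ± 0.69 in shoot and -0.11 ± 0.79 in root.

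In root, hvu-miR5049a and hvu-miR6198 were the members whose groups did not overlap, 2 of 14. Of the sequences tested 8.22% did so, 5.48% higher and 2.74% lower under nitrogen excess. hvu-miR5049a was lower under nitrogen excess, at 85.1 ± 81.9 CPM against 27.0 ± 13.9, with a log2 fold change of -1.68 ± 1.05 (adjusted p = 0.955, edgeR). Without control root 3 it was -0.51 ± 1.03. The groups were apart by little, at 35.36 CPM in control root 2 and 35.31 in nitrogen-excess root 2, and as shares of library totals they overlapped. hvu-miR6198 was higher at 1.48 ± 1.16 (adjusted p = 0.955, edgeR) and at 0.90 ± 1.19 without that library. hvu-miR6187 was at -2.06 ± 1.49, and at -2.42 ± 1.14 without control root 3 (adjusted p = 0.604, edgeR). In shoot the groups of 0 of the 9 members tested were apart, against 14.2% of the sequences tested. Among members that did not pass the filter there, hvu-miR6186 and hvu-miR6177 had each nitrogen-excess level above each control level. hvu-miR6186 was at 1.47 CPM or more against 0.973 or less, and hvu-miR6177 at 0.490 or more against 0.466 or less.

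In the authors' deposited table, 6 shoot sequences had an adjusted p below 0.05, of which 1 was a member, and 0 root sequences did. That member was hvu-miR6186, at a log2 fold change of 5.336 and an adjusted p of 0.04002 from the authors' DESeq2. The same deposited table lists hvu-miR6181 at 5.009 (adjusted p = 0.07165, authors' DESeq2) and hvu-miR6179 at 5.459 (adjusted p = 0.0969, authors' DESeq2). In shoot the highest counts of hvu-miR6186, hvu-miR6181 and hvu-miR6179 were in the library labelled nitrogen-excess shoot 3, with 13, 18 and 9 counts. The 10 libraries over which these sequences were called higher in root leave that library out. The other nitrogen-excess shoot libraries held 6 and 5 counts of hvu-miR6186, against 0, 2 and 0 in control shoot. The part of the library labelled nitrogen-excess shoot 3 in the deposited values was not tested. With no filter edgeR called 8 of 450 shoot sequences (1.78%), including hvu-miR6186 at 4.91 (adjusted p = 0.0453) and hvu-miR6210 (adjusted p = 0.00438). With that library left out as well, it called 6 of 437 (1.37%) and 0 members, and hvu-miR6186 was at 3.04 (adjusted p = 0.761).

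The nitrogen response was not found to differ between the tissues. Of 177 sequences tested for the interaction of tissue and condition, 0 were called (0%) by edgeR and 0 by DESeq2, with 8 at an unadjusted p below 0.05. Among the 18 members 2 were at that level, hvu-miR6181 at -5.88 ± 2.51 (adjusted p = 0.849, edgeR) and hvu-miR6179 at -5.54 ± 2.58 (adjusted p = 0.993, edgeR). Without the 2 libraries that stood apart, 0 of 183 sequences were called.

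Related sequences gave no called change either. Of the 7 listed sequences of these family numbers without a barley name, 4 were counted, tae-miR5048-5p, tae-miR5049-3p (82 counts), bdi-miR5049-3p (13) and tae-miR5050 (2). Of the 16 other sequences with a barley name, 11 were tested in shoot and 11 in root and 0 were called by edgeR, with median log2 fold changes of -0.27 and -0.73. Of 75 listed sequences of families known in other plants as triggers of phased siRNAs or regulators of NLR resistance genes, 2 were tested in each tissue and 0 were called. sbi-miR390, whose family starts trans-acting siRNA production in Arabidopsis, had 5703 counts and was at -1.55 ± 0.81 in shoot (adjusted p = 0.443, edgeR). ata-miR9863a-3p, whose family targets Mla-type resistance genes in barley, had 145 counts and was at -0.49 ± 0.89 (adjusted p = 0.941, edgeR).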

How the data were processed

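Small RNA libraries were made with the TruSeq small RNA kit, per the labels' protocols. The authors deposited whole-number counts per miRNA sequence and library, with 1 table per tissue. Each deposited table also holds a log2 fold change and a p-value, raw and adjusted, per the file headers. Per the submitters' processing notes, DESeq2 was used. For its version, and for trimming, alignment and counting, nothing was given in the sources used here. Near-identical sequences may share reads.

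The counts were tested with edgeR 4.0.16 in R 4.3.3: filterByExpr (minimum count 10, minimum total 15), TMM scaling, the quasi-likelihood test and Benjamini-Hochberg adjustment over all sequences tested, called below 0.05. SEs were derived from the log2 fold change and F. The code was tested on simulated data. p-values measure the spread among these libraries. DESeq2 1.42.0, other scalings and filters, a replicate block, the naming series (first prefix against the later ones) and omitted libraries were alternatives. Members with a total of at least 50 counts are given in every library, others by total. The members and lists were chosen with earlier results of these data known. The model over both tissues and conditions, the summed counts and the fits that combine no filter with an omitted library or omit 3 libraries were added after seeing the data. Same-numbered libraries deviated together in nitrogen-excess shoot and root (correlations over 177 sequences of 0.49, 0.19 and 0.34), and not in every pair of the other comparisons. Genome positions and hairpins were not analysed here.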

Additional observations from a re-analysis of the deposited data

How the results depend on the processing

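No member was called in the opposite direction by any alternative. Of 1271 member values under alternatives to 82 reported ones, 1110 had the same sign; 161 had the other, 146 of them within 1 SE, and 65 became called. In shoot, the count of called sequences, 0 as reported, was 8 with no filter, 8 with the DESeq2 test, 3 with the replicate block and 6 with no filter and without nitrogen-excess shoot 3; leaving out single libraries gave 0 to 4, the 4 without nitrogen-excess shoot 1. In root and for the interaction it was 0 under every alternative run, the replicate block included. For root against shoot in control plants, no filter gave 20, the DESeq2 test 16, and leaving out single libraries 0 to 40, the 40 without control root 3. In nitrogen-excess plants the DESeq2 test gave 1, the replicate block 18 and single omissions 0 to 28, the 28 without nitrogen-excess shoot 3. Over both conditions the count of 1 became 0 with library totals only, 45 with no filter, 7 with at least 20 counts in 3 libraries, 40 with the DESeq2 test (6 of them members), 2 with the replicate block, 0 to 51 without single libraries (51 without control root 3, 40 without nitrogen-excess shoot 3, 18 without nitrogen-excess root 1) 62 without both libraries that stood apart and 51 without nitrogen-excess root 3 as well. Why these counts moved was not tested. Outside nitrogen-excess plants same-numbered libraries deviated together in some pairs only. Correlations ran from -0.25 (replicate 3 of the roots) to 0.51 (replicate 1 of control shoot and control root). What the block adds there was not tested. Omitting both libraries from a single comparison equals omitting the 1 it holds. Low counts limit most members: 3 counts are 13.2 CPM in nitrogen-excess shoot 3 and 0.734 CPM in nitrogen-excess shoot 1.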
